A study of Arabidopsis thaliana with 4 samples.

Results

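The ATG8 proteins are small ubiquitin-like proteins, and in Arabidopsis thaliana 9 genes, ATG8A to ATG8I, encode them. They were examined here together with ATG3, the E2-like enzyme that joins ATG8 to its lipid anchor. Members were the probe sets annotated to exactly 1 gene whose symbol contains ATG8 or APG8, plus ATG3, with the brightest probe set taken for each locus. This gave 10 genes, each read by 1 probe set, out of 13286 loci named in this way on the array. The annotation lists ATG8A (AT4G21980) as APG8A and ATG8I (AT3G15580) as APG8H, and the latter is not the same gene as ATG8H (AT3G06420).

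Autophagy carries cytoplasm, damaged organelles and protein aggregates to the vacuole inside double-membraned vesicles called autophagosomes. The protease ATG4 trims ATG8 to a C-terminal glycine, and the E1-like ATG7, the E2-like ATG3 and a complex of ATG5, ATG12 and ATG16 then couple it to phosphatidylethanolamine, so that it coats the growing membrane and docks cargo receptors such as NBR1. In plants this recycling supports survival under carbon and nitrogen shortage and the export of nutrients from ageing leaves.

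The study compared wild-type seedlings of the accession Col with seedlings carrying the ref6-1 allele in the Col background. REF6, also named JMJ12, takes repressive methyl groups off a lysine of histone H3 and belongs to the Jumonji class of demethylases. Both genotypes were untreated whole seedlings, 10 days old, kept on MS medium at 23 °C in 16 h light and 8 h dark, and each was measured on 2 Affymetrix ATH1 arrays that the labels call biological replicates. The mutant group rests on a single allele, and the design text of the series names it ref6/jmj12 where the sample labels have ref6-1.

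The deposited values are linear intensities with no unit beyond brightness. The median intensity of the 4 arrays lay between 142.6 and 146.3. Over probe sets, log2 intensities correlated at 0.994 within Col, at 0.995 within ref6-1 and at 0.988 to 0.994 across genotypes. No probe set is named REF6 in the annotation used, so the genotype was not checked on the array. Of the tissue markers looked up, the leaf genes RCA and LHCB4.1 had mean intensities of 13158 and 12013 in Col, and the root hair genes EXPA7 and EXPA18 had 93.7 and 199. None of these 4 passed the test between genotypes, with log2 differences of 0.02 to 0.11. The other 14 tissue markers, among them all those of seed storage and flower organs, are not paired with a probe set of 1 gene in that annotation. Whole seedlings mix many tissues, so fewer cells of a type and less transcript per cell cannot be told apart.

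Of the 10 members, ATG8B and ATG8G were lower in ref6-1, and the other 8 did not pass the test. ATG8B fell to 30.1% and ATG8G to 40.8% of the Col mean intensity. The log2 fold changes of the remaining members ran from -0.47 for ATG8D to -0.05 for ATG8H. Calls are from limma on log2(intensity + 16) over all 22746 probe sets, with Benjamini-Hochberg adjustment and a threshold of 0.05, and a fold change on this scale understates that of a dim probe set. Among all probe sets, 0.708% were called lower and 0.774% higher. At an unadjusted p under 0.05, 3 members were lower, against 4.38% of all probe sets.

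**Figure D1:**
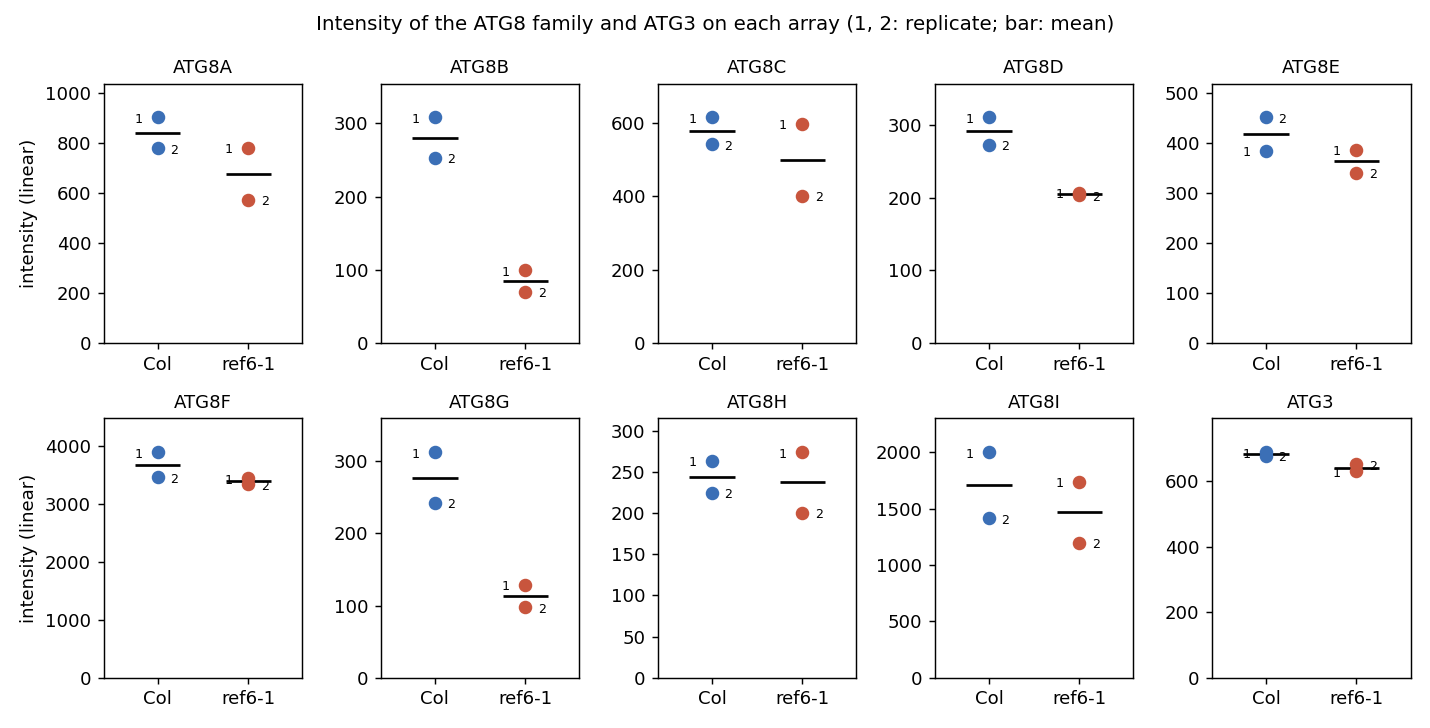
Linear intensity (vertical axis of each panel, starting at 0) of the 10 genes on the 2 Col arrays (blue) and the 2 ref6-1 arrays (red), with the replicate number beside each point and a bar at the mean of each genotype. ATG8B, ATG8D, ATG8F, ATG8G and ATG3 have both ref6-1 points below both Col points, with the widest gaps in ATG8B and ATG8G.

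ATG8A to ATG8G encode forms that end in extra residues after the glycine and need ATG4 before they can be conjugated. ATG8B (AT4G04620) had intensities of 308 and 253 on Col replicates 1 and 2 and of 99 and 69.65 on ref6-1 replicates 1 and 2. Both mutant arrays were far below both wild-type arrays, and the gap between the genotypes exceeded the difference between replicates of either one. The mean intensity was 281 ± 39.2 in Col against 84.3 ± 20.8 in the mutant (SD, n = 2 each). The log2 fold change was -1.57 (SE 0.149, 95% interval -1.91 to -1.24, limma adjusted p = 0.000706). It was the 13th lowest log2 fold change of the 22746 probe sets.

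ATG8G (AT3G60640) gave 313 and 242 on the Col arrays and 128 and 97.8 on the ref6-1 arrays. The groups did not overlap here either, and replicate 1 was the brighter array of each genotype, as it was for ATG8B. Mean intensities were 278 ± 49.7 in Col and 113 ± 21.7 in the mutant (SD, n = 2 each). The log2 fold change was -1.18 (SE 0.147, 95% interval -1.51 to -0.86, limma adjusted p = 0.00302). This was the 28th lowest of all.

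ATG8D (AT2G05630) was next in size. Its intensities were 310.5 and 273 in Col and 207 and 203 in ref6-1, so that the mutant arrays were nearly equal to each other and both below the wild type. The mean in ref6-1 was 70.3% of that in Col. The log2 fold change of -0.47 (95% interval -0.70 to -0.24) had an unadjusted p of 0.00106 and missed the threshold after adjustment (limma adjusted p = 0.0633). The settings in which it passed included median centring of the arrays (limma adjusted p = 0.0489). Filters that drop the dimmest 30% or 50% of probe sets were also among them (0.0496 and 0.0461). It did not pass with quantile normalization, with 1 or 64 added in place of 16, without the intensity trend or with a robust prior (limma adjusted p from 0.0512 to 0.0738). With single arrays left out, ATG8D ranged from -0.56 without Col replicate 2 to -0.39 without Col replicate 1.

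ATG8A (AT4G21980) and ATG8C (AT1G62040) separated mainly on ref6-1 replicate 2. ATG8A gave 901 and 779 in Col and 781 and 573 in ref6-1. The first mutant array thus lay beside the second wild-type array, and only the second mutant array stood clearly below. ATG8C showed this more plainly, with 616 and 542 in Col and 599 and 402 in ref6-1, the 599 lying within the wild-type range. The log2 fold changes were -0.32 for ATG8A (95% interval -0.64 to 0.00186, limma adjusted p = 0.595) and -0.23 for ATG8C (-0.59 to 0.13, adjusted p = 0.846). Without ref6-1 replicate 1, ATG8A was at -0.54 and ATG8C at -0.51. Without ref6-1 replicate 2, ATG8A was at -0.10 and ATG8C at 0.05.

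ATG8E (AT2G45170) and ATG8F (AT4G16520) are placed by sequence in the same subgroup as ATG8G, and neither passed the test. ATG8E had 384 and 451 in Col and 386 and 341 in ref6-1, and its groups overlapped. ATG8F had 3891 and 3457 in Col and 3439 and 3335 in ref6-1, so the genotypes were apart by less than the Col arrays differed from each other. The log2 fold changes were -0.19 (95% interval -0.44 to 0.06) and -0.11 (-0.34 to 0.11), with limma adjusted p of 0.782 and 0.887.

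ATG8H and ATG8I form a separate branch, whose proteins end at the glycine without needing ATG4. ATG8H had 264 and 225 in Col and 274 and 201 in ref6-1, and the mutant arrays lay on either side of the wild-type pair. ATG8I had 2001 and 1414 in Col and 1741 and 1195 in ref6-1. Replicates of ATG8I differed more than the genotypes did, in both groups. The log2 fold changes of -0.05 for ATG8H (95% interval -0.37 to 0.27) and -0.22 for ATG8I (-0.64 to 0.20) did not pass (limma adjusted p = 0.975 and 0.881), and the interval of ATG8I still includes a decrease larger than the value measured for ATG8D.

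ATG3 (AT5G61500), the conjugating enzyme, had the steadiest signal of the 10 genes between the Col arrays. It gave 688 and 677 in Col and 629 and 651 in ref6-1. Both mutant arrays were below both wild-type arrays, at a mean of 93.8% of Col. The log2 fold change of -0.09 (95% interval -0.30 to 0.12) did not pass the test (limma adjusted p = 0.916).

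**Figure D2:**
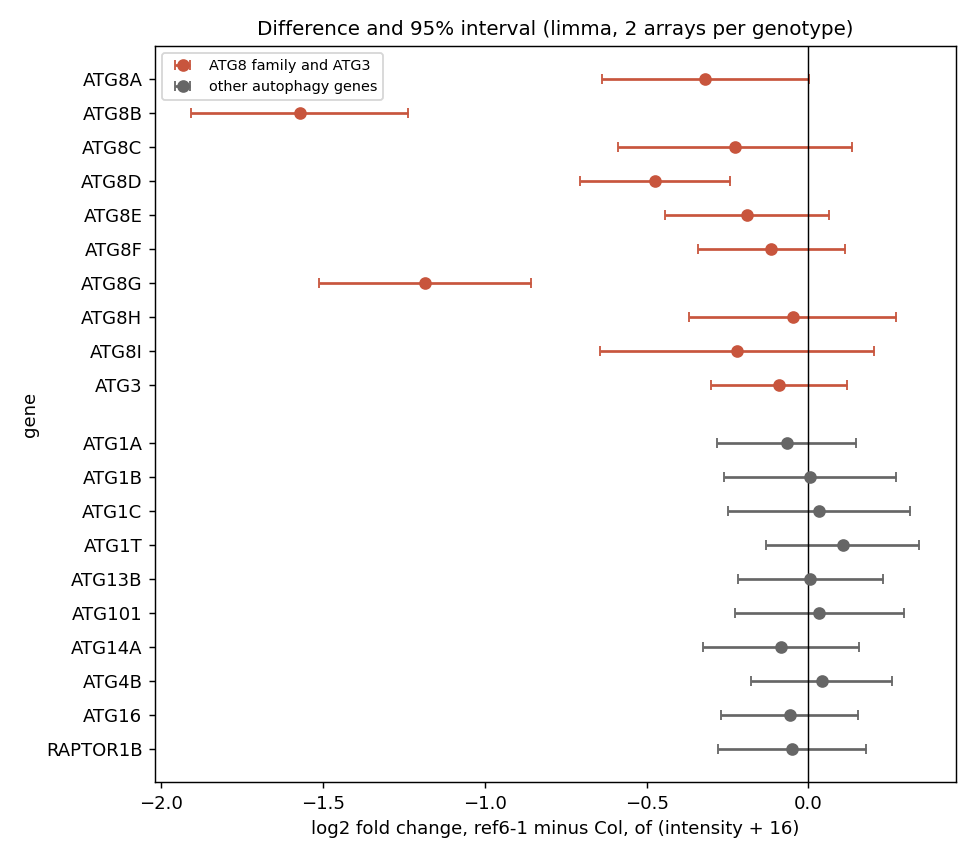
Log2 fold change of (intensity + 16), ref6-1 minus Col (horizontal axis), with its 95% limma interval (bars), for the 10 members (red) and for 10 other autophagy genes (grey). The intervals of ATG8B and ATG8G end at -1.24 and -0.86, below the lowest bound of the other 8 members, -0.70, and all 10 grey intervals include 0.

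Counted over the family, both ref6-1 arrays were below both Col arrays for 5 of the 10 members, and for 0 members were both above. Among all probe sets, 19.5% had both mutant arrays below and 16.1% both above. All 10 log2 fold changes were below 0, as were 56.4% of those of all probe sets. The median was -0.22 over the members and -0.02 over all probe sets tested. Over the 8 members that did not pass, the median was -0.20. The difference in response between members was not tested.

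The members also differed between replicates of one genotype, and mostly the same way. On ref6-1 replicate 2, 9 of the 10 were dimmer than on ref6-1 replicate 1, the exception being ATG3. The median difference was -0.38 on the log2 scale, against 0.01 over all probe sets, of which 47.3% were dimmer on replicate 2. In Col, 9 of the 10 were dimmer on replicate 2 as well, ATG8E being the exception, with a median of -0.19 against -0.04 over all probe sets and 60.1% of them dimmer. Among the members the ref6-1 replicates were farthest apart for ATG8C, at -0.56, and ATG8I, at -0.54.

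**Figure D3:**
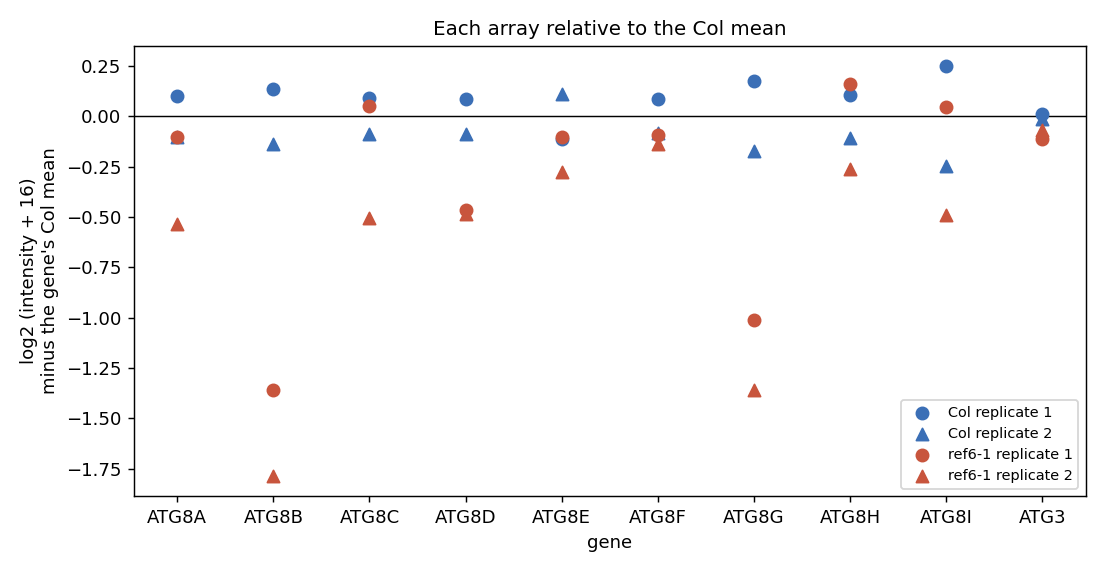
Log2(intensity + 16) of each array minus the mean of the Col arrays (vertical axis) for the 10 genes, with Col in blue, ref6-1 in red, circles for replicate 1 and triangles for replicate 2. All 10 triangles of ref6-1 lie below 0, at a median of -0.49, while the ref6-1 circles have a median of -0.10 and 3 of them, ATG8C, ATG8H and ATG8I, lie above 0.

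With single arrays left out, ATG8B and ATG8G stayed lower in ref6-1 in each of the 4 fits. ATG8B ranged from -1.79 to -1.36, and ATG8G from -1.36 to -1.01. These fits treat the lone array of a genotype as varying like the pair of the other. Their p-values therefore do not measure the replicate spread of both genotypes. The other members were less steady. Leaving out ref6-1 replicate 1 put the median of the 10 genes at -0.49, and leaving out ref6-1 replicate 2 put it at -0.10. Leaving out Col replicate 1 or 2 gave -0.18 or -0.37. Without Col replicate 1, 8 of the 10 were below 0, against 47.5% of all probe sets, and without ref6-1 replicate 2 it was 7 of the 10, against 55.5%. The other fits had all 10 below 0, against 59.5% without Col replicate 2 and 53.5% without ref6-1 replicate 1. Leaving out Col replicate 1 put ATG8H and ATG8I above 0, and leaving out ref6-1 replicate 2 did so for these genes and ATG8C.

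**Figure D4:**
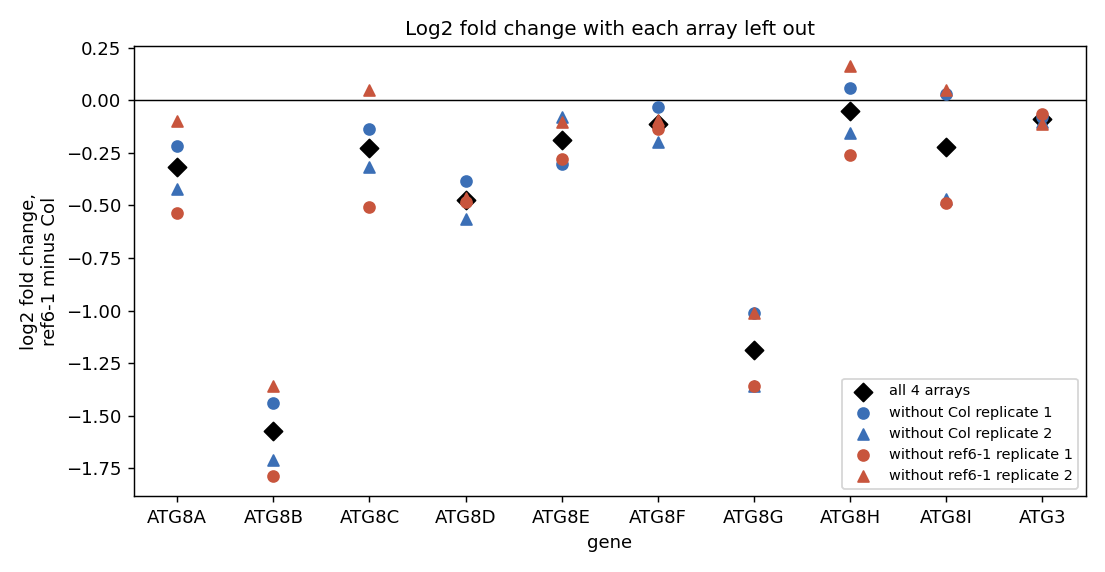
Log2 fold change, ref6-1 minus Col (vertical axis), for the 10 genes with all 4 arrays (black diamonds) and with 1 array left out (blue, a Col array; red, a ref6-1 array; circles, replicate 1; triangles, replicate 2). ATG8B and ATG8G stay at or below -1.01 in all 4 fits, while ATG8C, ATG8H and ATG8I have points on both sides of 0.

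The rest of the autophagy pathway was followed through a list of 42 further loci. Of these, 10 are paired with a probe set of 1 gene in the annotation used and 32 are not, so the list covers the pathway thinly and leaves out ATG7, ATG5 and NBR1. Of the 10 genes, each by its brightest probe set, 0 were called lower and 0 higher in limma, against 0.708% and 0.774% of all probe sets. At an unadjusted p under 0.05 the count of lower ones was also 0, against 4.38% of all probe sets. With only 10 genes, counts of 0 are near those shares. Their median log2 fold change was 0.01, with 4 values below 0 and 6 above, and the smallest adjusted p was 0.912. Both ref6-1 arrays lay below both Col arrays in 2 of the 10, ATG1A and ATG16, against 19.5% of all probe sets.

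Of these 10 genes, 6 belong to the complex that starts autophagosome formation. The kinase genes ATG1A, ATG1B, ATG1C and ATG1T had log2 fold changes of -0.07, 0.00, 0.03 and 0.11. Their partners ATG13B and ATG101 had 0.01 and 0.03. ATG101, with intensities of 325 and 386 in Col and 388 and 339 in ref6-1, shows how these genes, except ATG1A, overlapped between genotypes. The 95% intervals of all 6 genes extended at most from -0.28 to 0.34, so none includes the change seen in ATG8G.

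In the conjugation machinery, ATG4B, a protease that processes ATG8, had 295 and 319 in Col and 313 and 319 in the mutant, so its difference was 0.04 on the log2 scale (95% interval -0.18 to 0.26, limma adjusted p = 0.971). ATG16, which helps place ATG8 on the membrane, had 598 and 569 in Col and 556 and 562 in the mutant, a difference of -0.06 (-0.27 to 0.15, adjusted p = 0.949). RAPTOR1B, a partner of the TOR kinase that holds autophagy down when nutrients are ample, was at -0.05 (adjusted p = 0.965). ATG14A, a subunit of the lipid kinase complex, was at -0.08 (adjusted p = 0.936). A dimmer probe set given to the same locus read 314 on Col replicate 1 and between 39.6 and 44.2 on the other 3 arrays. Its log2 fold change of -1.30 (95% interval -2.56 to -0.04, unadjusted p = 0.0440) did not pass (limma adjusted p = 0.562). Of the 8 starvation and senescence markers only WRKY53, a transcription factor gene of leaf ageing, had a probe set of 1 gene, at 0.09 (adjusted p = 0.920).

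In the gene table of assembly TAIR10.1 the loci beside ATG8B and ATG8G were looked up, a comparison added after the data had been seen. On one side of ATG8B, AT4G04630 adjoins it directly and gave a log2 fold change of -0.20 (95% interval -0.42 to 0.02, limma adjusted p = 0.674). On one side of ATG8G, AT3G60650 adjoins it and gave -0.05 (-0.35 to 0.25, adjusted p = 0.973). On the other sides, the nearest loci paired with a probe set of 1 gene were AT4G04600 and AT3G60590, each with 6 loci between. They were at -0.17 and -0.01. Loci without such a probe set were passed over, though the array may read some of them, so closer neighbours were not all checked. Over the nearest locus with a probe set of 1 gene on each side of all 10 members, 0 of 20 were called, against 1.48% of all probe sets. The log2 fold changes ran from -0.28 to 0.17, with a median of -0.06. Of the 20, 16 were below 0 and 4 above, and of all probe sets 56.4% were below 0.

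The genes whose values over the 4 arrays lay closest to ATG8B, out of 13435 probe sets of other named loci, were PDF1.2b, AT5G05710 and AT1G65370. Likeness was the root mean square difference of centred log2(intensity + 16), which was 0.0588, 0.126 and 0.172 for these genes. PDF1.2b, a plant defensin gene read by a probe set that can detect several similar transcripts, had 174 and 140.1 in Col and 57.4 and 33.45 in ref6-1, with the brighter array in the same place as for ATG8B. For ATG8G the closest were AT5G57760, AT5G20790 and AT5G05710, at 0.121, 0.130 and 0.155. With 4 arrays this ranking rests mainly on the size of the difference between genotypes, and it is given as a description.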

How the data were processed

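The authors deposited 1 linear intensity per probe set and array, per the labels from biotinylated cRNA made from 10 ug of Trizol-extracted total RNA on ATH1 arrays. No source used here gives their background correction, summarization or normalization. Of 22810 probe sets, 64 controls were left out. Intensities were taken as log2(intensity + 16), without further normalization, and the genotypes were compared two-sided with limma 3.58.1 under R 4.3.3 (lmFit, then eBayes with its trend option, and Benjamini-Hochberg over 22746 probe sets). The number of arrays limits the precision, and log2 fold changes had a median SE of 0.107. Names come from the platform annotation, with 13513 probe sets of 1 gene, matched to loci of the RefSeq gene table of TAIR10.1. Coordinates are left out, since no source used here names the array's genome build. All 10 member probe sets carry the plain _at ending, and cross-reaction between the similar ATG8 transcripts was not tested. The members, lists and tests were chosen with earlier results of these data known. All members are named, as is any list locus with a probe set of 1 gene, and the 3 genes closest to each member that passed. The fit was tested on simulated data. Alternatives were other normalization, pseudocounts, filters, priors, a replicate block, a fold threshold and each array left out.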

Additional observations from a re-analysis of the deposited data

How the results depend on the processing

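ATG8B and ATG8G stayed lower and past the threshold under all 13 alternatives run on them and past a log2 fold of 0.6. Without the block, the 8 normalization, pseudocount, filter and prior settings gave -1.74 to -1.22 for ATG8B and -1.29 to -0.95 for ATG8G. With single arrays left out, the count of probe sets called went from 273 to 533 (337 with all arrays, 533 without Col replicate 2), the members called lower from 2 to 3 (against 0.572% to 1.3% of all probe sets called lower) and the members' median from -0.486 to -0.102. It moved most without ref6-1 replicate 1. Signs turned for ATG8H (0.0580 without Col replicate 1, 0.161 without ref6-1 replicate 2; range -0.260 to 0.161), ATG8I (0.0283 and 0.0486; range -0.488 to 0.0486) and ATG8C (0.0509 without ref6-1 replicate 2; range -0.506 to 0.0509), none of them past the threshold. Blocking on replicate number gave 1636 calls in either direction and 6 members called lower, against 3.72% of all probe sets called lower; the 4 gained were ATG8A, ATG8C, ATG8D (adjusted p = 9.50e-06) and ATG8I. No label ties a replicate number to a batch. The replicate differences of the 2 genotypes correlated at 0.279 over probe sets, and whether the arrays are paired was not tested. The 10 other autophagy genes gave 0 lower calls under every setting run, against 0.708% of all probe sets called lower in the main fit. Without the dimmest 50% of probe sets, 6 of these genes were left. No member has a second probe set annotated to exactly 1 gene, so that alternative was not run. The unstated background correction limits dim probe sets. By mean over the 4 arrays no member was among the dimmest 50%, a ranking to which the Col values contribute. On the ref6-1 arrays, ATG8B (99 and 69.65) and ATG8G (128 and 97.8) were below the array medians of 144.6 and 143.4. Their decreases therefore rest partly on dim values.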
